A study of Mus musculus with 9 samples.

Results

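The small nucleolar RNA host genes, whose symbols are Snhg and a number, were followed in liver RNA from 36 C57BL/6J males, which was hybridised as 9 pools of 4 mice to single-colour Agilent arrays. The members were chosen by symbol, as all probes whose identifier holds a RefSeq accession or a RIKEN clone of such a gene, without the imprinted Snhg14. This rule found 7 of the 5402 genes that could be named, through 7 of the 97836 probes, 1 probe each for Snhg3 (NR_003270), Snhg5 (NR_040721), Snhg7 (NR_024068), Snhg8 (NR_028574), Snhg9 (NR_027900), Snhg16 (NR_027821) and Snhg18 (NR_038186), all through a RefSeq accession. The reference table holds 16 such genes, and the other 9 were not analysed here. By the rule the genes are those of 1 family, but the family itself was selected on its levels in the metformin pools in earlier results of these arrays. No member had a named probe for a second isoform, so that isoforms could not be compared. Most probes could not be named, and further probes of these genes may be among them. All 7 passed the filter on dim probes.

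The mice came in 3 groups of 3 pools, all aged 20 weeks. The metformin group ate for 17 weeks a diet in which fat gave 45% of energy, beginning at 3 weeks of age, and was given the glucose-lowering drug metformin by gavage at 3 mg/kg per day in the last 5 weeks. The high fat diet group ate the same diet for the same time and received saline by gavage in the last 5 weeks. Control mice ate chow for 17 weeks, with no gavage recorded, so that a difference between the high fat diet and control groups holds the diet and the saline gavage together. A pool averages its mice, so p-values measure the spread between pools and not that between single mice.

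Snhg genes are transcribed as spliced noncoding RNAs whose introns carry small nucleolar RNAs (snoRNAs). The snoRNAs are cut out and guide the chemical modification of other RNAs, chiefly ribosomal RNA: box C/D snoRNAs (Snord) direct ribose methylation and box H/ACA snoRNAs (Snora) direct pseudouridylation. The spliced exons of many host transcripts are short-lived, because translation of their small reading frames exposes them to nonsense-mediated decay, and several hosts begin with a tract of pyrimidines like that of ribosomal protein mRNAs, whose translation follows growth signals through mTOR. The probes measure the RNA that bears the host's accession and not the snoRNAs it carries.

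By position in the reference table, each of the 7 genes holds at least 1 annotated snoRNA. Snhg3 carries Snora73a and Snora73b, which are needed for cleavage of the ribosomal RNA precursor. Snhg7 carries Snora17 and Snora43, Snhg8 carries Snora24, and Snhg9 carries Snora78. Snhg16 carries Snord1a, Snord1b and Snord1c, and Snhg18 carries Snord123. Snhg5 holds 2 snoRNA genes that have no symbol in the table, and its human counterpart was first known from a chromosomal break in a lymphoma. Snhg9 is the one member that overlaps another gene, the ribosomal protein gene Rps2, which lies on the opposite strand. Whether the Snhg9 probe also reads Rps2 RNA was not tested.

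The sequence around each annotated transcription start is shown because the start is a feature that these genes may share and that the choice of members did not use. RefSeq promoter windows of the GRCm38.p6 build were matched by symbol for all 7 members. Each line below gives 40 bases before and 50 bases from the start, 5′ to 3′ on the gene's strand. Capitals mark TATAAA and the longest run of C and T that opens with C, is at least 5 bases long and begins within 15 bases of the start.
Snhg7 (chr2:26640195-26640284, minus strand): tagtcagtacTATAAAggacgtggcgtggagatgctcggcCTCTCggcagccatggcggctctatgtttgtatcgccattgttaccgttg
Snhg8 (chr3:123508287-123508376, minus strand): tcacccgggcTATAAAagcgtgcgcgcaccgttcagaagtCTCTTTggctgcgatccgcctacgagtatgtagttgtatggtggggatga
Snhg5 (chr9:88522848-88522937, minus strand): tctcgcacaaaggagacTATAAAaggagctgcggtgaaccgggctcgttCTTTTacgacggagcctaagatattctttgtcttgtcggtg
Snhg3 (chr4:132353637-132353726, minus strand): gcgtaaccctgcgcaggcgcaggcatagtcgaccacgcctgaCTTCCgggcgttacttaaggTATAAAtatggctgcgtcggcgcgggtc
Snhg9 (chr17:24719916-24720005, minus strand): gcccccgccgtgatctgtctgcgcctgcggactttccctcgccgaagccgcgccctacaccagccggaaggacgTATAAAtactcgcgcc
Snhg16 (chr11:116671620-116671709, plus strand): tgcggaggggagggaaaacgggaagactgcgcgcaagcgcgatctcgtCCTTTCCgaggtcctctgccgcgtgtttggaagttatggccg
Snhg18 (chr15:32244613-32244702, minus strand): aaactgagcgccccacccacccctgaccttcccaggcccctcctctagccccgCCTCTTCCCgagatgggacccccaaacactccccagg

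In 2 members, Snhg7 and Snhg8, a C followed by at least 4 further pyrimidines stood exactly at the annotated start, as CTCTC and CTCTTT. Of all 32851 promoter windows in the table, 2.51% had such a start. With a start position allowed anywhere in the first 15 bases, 6 of the 7 members had such a run, all but Snhg9, against 23.2% of all windows. The letters TATAAA occurred on the gene strand in 5 members, against 8.32% of all windows. Counted from the annotated start, they began at -30 in Snhg7 and Snhg8 and at -23 in Snhg5. In Snhg3 and Snhg9 they began at base 23 and base 35 of the annotated transcript, downstream of its first base. Searches for TATAAA and CACGTG covered the full RefSeq promoter window, of which the lines above show a part. On the other strand TATAAA was found in Snhg9, outside the bases shown. CACGTG, which reads the same on both strands, occurred in Snhg9 and was not found in the other 6 windows, against 7.15% of all windows. These matches describe letters in a window and were not tested as binding sites.

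All levels below are log2 processed signals relative to the 75th percentile of their array, and a probe's level is set only against the same probe on other arrays. The extraction software marked 53.0% to 63.5% of an array's spots as well above background, lowest on metformin replicate 2, and 0 spots as saturated. Control replicate 1 stood apart, with 600 probes that exceeded the other arrays' median by over 2, against 19 to 80 on each remaining array. Arrays lay on 3 slides. On slide 1 were high fat diet replicate 1 and the 3 controls, slide 2 held high fat diet replicates 2 and 3 with metformin replicates 1 and 2, and slide 3 held metformin replicate 3. None of the 10 listed hepatocyte markers had a named probe, so the tissue label could not be checked here, and 1 of 53 markers of 9 cell types had one, the muscle transcript Mir1a-1hg. Mir1a-1hg was at -4.05 ± 0.38 in the metformin pools, -2.87 ± 0.35 in the high fat diet pools and -3.45 ± 0.37 in the controls (SD, n = 3 each). It was thus at a difference of -1.18 between metformin and high fat diet, in the same direction as most members below. Its adjusted p in limma was 0.483, and its part in their values was not tested. The level of Mir1a-1hg was low, and whether its probe was above background in the metformin pools was not examined.

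The group was proposed with results of these arrays in view and under the name of its behaviour with metformin. Comparisons that hold the metformin pools are therefore descriptions, and no p-value is attached to a member there. In liver tissue, fewer cells of a type and less RNA per cell cannot be told apart.

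Metformin on the high fat diet went with lower mean levels of 6 of the 7 host transcripts than saline on the same diet, and Snhg9 was the exception. Across all 62036 tested probes, 48.7% had a lower mean in the metformin pools. The median difference over the 7 members was -0.39 on the log2 scale. The differences ran from -0.80 for Snhg18 to 0.12 for Snhg9. Snhg18 was not above background on 2 of the 3 metformin arrays and gave -0.18 with normexp background correction. That setting adds an offset of 50 before the log, which draws differences of dim probes toward 0. The median over all tested probes was 0.0069. The pools of both groups did not overlap for 2 members, Snhg5 and Snhg7, both lower, while 8.15% of all probes lay apart in that direction, 8.04% in the other and 16.2% in either. Limma called 0.00645% of all tested probes in this comparison and 0 of the 7 members, a count on the values behind the choice of the family, from which nothing is read.

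Snhg7 carries a pair of H/ACA snoRNAs, and in human tumours its counterpart is often abundant. Its levels were -1.98, -2.42 and -2.41 in metformin pools 1 to 3, against -1.93, -1.67 and -1.62 in high fat diet pools 1 to 3 and -1.04, -2.11 and -1.68 in control pools 1 to 3. All 3 metformin pools were below all 3 high fat diet pools, whereas control replicate 2 lay among the metformin pools. The difference between metformin and high fat diet was -0.53 (SE 0.26, 95% interval -1.103 to 0.04), a level 1.45-fold lower. The 2 spots of this probe differed on the same array by a median of 0.51 and by up to 0.90, sizes like that of the difference between the groups. On metformin replicate 2 only 1 of its 2 spots was well above background.

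Snhg5 is a C/D host in human, where it carries the U50 family. Its levels were -0.28, -0.25 and -0.48 in the metformin pools, against -0.18, -0.22 and 0.13 in the high fat diet pools and -0.48, 0.18 and 0.34 in the controls. The metformin pools lay below the high fat diet pools by a narrow margin, and control replicate 1 was as low as the lowest metformin pool. The difference between metformin and high fat diet was -0.24 (SE 0.22, 95% interval -0.73 to 0.24), and -0.13 without high fat diet replicate 3. Its 2 spots differed by a median of 0.03 and at most 0.24, a closer repeat than for Snhg7.

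Snhg16, the host of the Snord1 family, is known in human from aggressive neuroblastoma. It was at -2.30, -2.94 and -2.00 in the metformin pools, against -1.60, -2.30 and -1.74 in the high fat diet pools and -1.92, -1.34 and -1.54 in the controls. Every metformin pool was below every control, while high fat diet replicate 2 lay among the metformin pools. The difference was -0.54 (SE 0.27, 95% interval -1.15 to 0.08) against high fat diet and -0.81 (SE 0.27, 95% interval -1.43 to -0.20) against control, and normexp background correction gave -0.18 and -0.27. Metformin replicate 2, where the probe was not well above background, gave the lowest value, and without that array the difference from high fat diet was -0.27.

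Snhg3, the host of the snoRNAs that act in precursor cleavage, has been reported to favour fat storage in mouse liver. Its levels were 1.11, 0.68 and 1.15 in the metformin pools, against 1.08, 1.83 and 1.20 in the high fat diet pools and 0.93, 1.57 and 1.41 in the controls. High fat diet replicate 1 and control replicate 1 lay within the range of the metformin pools, and high fat diet replicate 2 was the highest of the 9 pools. The difference between metformin and high fat diet was -0.39 (SE 0.24, 95% interval -0.93 to 0.16), and -0.16 without high fat diet replicate 2. This probe and that of Snhg8 have 1 spot each per array, so that no repeat within an array was available.

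Snhg8, the host of Snora24, was at 1.54, 1.41 and 1.99 in the metformin pools, against 1.90, 1.51 and 2.11 in the high fat diet pools and 1.15, 2.04 and 2.10 in the controls. All 3 groups overlapped, and control replicate 1 was the lowest pool. The difference between metformin and high fat diet was -0.19 (SE 0.28, 95% interval -0.82 to 0.43), and -0.05 without high fat diet replicate 3.

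Snhg18, the host of Snord123, was above background on the fewest arrays of the 7 members. Its levels were -3.35, -3.38 and -3.63 in the metformin pools, against -3.55, -2.07 and -2.36 in the high fat diet pools and -3.44, -3.03 and -3.15 in the controls. It was above background on 1 of 3 metformin, 2 of 3 high fat diet and 2 of 3 control arrays. High fat diet replicates 2 and 3, both on slide 2, were the highest of the 9 pools, and high fat diet replicate 1, on slide 1, was lower than 2 of the 3 metformin pools. The difference between metformin and high fat diet was -0.80 (SE 0.33, 95% interval -1.53 to -0.07), and 2 of the 3 metformin values behind it were not above background. Leaving out high fat diet replicate 1 gave -1.24, and leaving out high fat diet replicate 2 gave -0.50. Its 2 spots differed by a median of 0.35 and by up to 1.08.

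Snhg9, the member that overlaps Rps2, was the one with a higher mean in the metformin pools. Its levels were 7.12, 7.17 and 7.29 in the metformin pools, against 7.22, 7.10 and 6.90 in the high fat diet pools and 7.04, 7.17 and 6.87 in the controls. The 3 groups overlapped, and the 9 pools ran from 6.87 in a control to 7.29 in a metformin pool. The difference was 0.12 (SE 0.15, 95% interval -0.21 to 0.44) between metformin and high fat diet. It ran from 0.032 without high fat diet replicate 3 to 0.19 without high fat diet replicate 1. Its 2 spots differed by a median of 0.10 and at most 0.14.

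**Figure D1:**
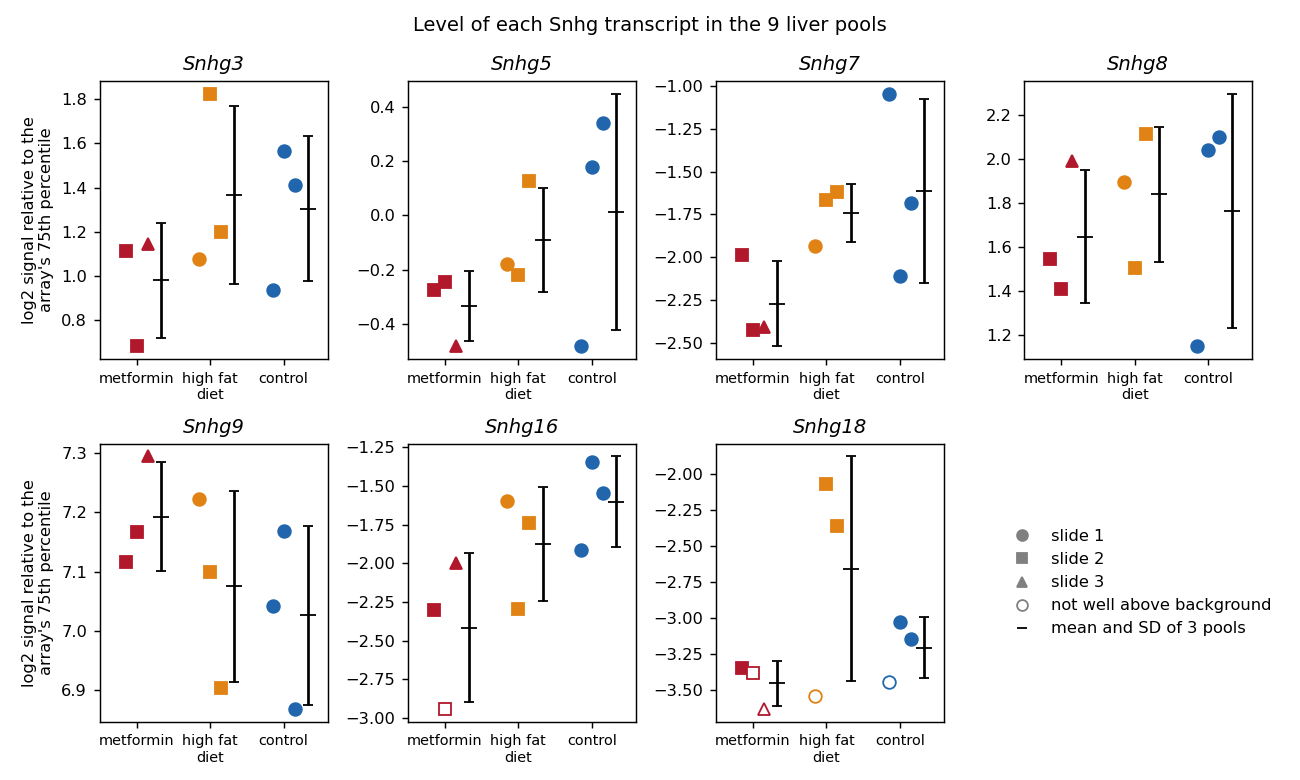
Level of each of the 7 host transcripts in every pool, in log2 units with the 75th percentile of each array set to 0, with the metformin, high fat diet and control pools from left to right. Marker shapes give the slide, open markers a probe that was not well above background, and the bars the mean and SD of 3 pools; Snhg7 and Snhg5 are the members whose metformin pools all lie below the high fat diet pools.

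Because slide 2 carries pools of both groups, the comparison could be restricted to it, with metformin replicates 1 and 2 against high fat diet replicates 2 and 3. There 6 of 7 members had a lower metformin mean. Both metformin pools were below both high fat diet pools for 5 of them, Snhg3, Snhg5, Snhg7, Snhg16 and Snhg18. The share of all probes in that order within the slide was not computed, so nothing is read from these counts. These pools also enter the comparison above, so the values within the slide are no separate result. The differences within the slide were -0.61 for Snhg3, -0.21 for Snhg5, -0.56 for Snhg7, -0.33 for Snhg8, -0.61 for Snhg16 and -1.15 for Snhg18, and 0.14 for Snhg9. With normexp background correction over all 9 arrays the same 6 members were lower. The differences were -0.15 for Snhg7 and -0.18 each for Snhg16 and Snhg18. These are the 3 members with a spot at background on at least 1 array. Snhg5 gave -0.15 too, while Snhg3 and Snhg8 gave -0.38 and -0.21 in that setting. Its offset of 50, added before the log, draws differences of dim probes toward 0. Signals of Snhg7, Snhg16 and Snhg18 ran from 14.2 to 117, so the offset alone makes their differences smaller. Any part of background in the smaller values was not tested. Metformin replicate 2, the array with the lowest share of spots above background at 53.0%, held the lowest metformin value for Snhg3, Snhg7, Snhg8 and Snhg16. The part of that array's lower share of detected spots in these values was not tested, and without it the median difference over the members was -0.27.

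**Figure D2:**
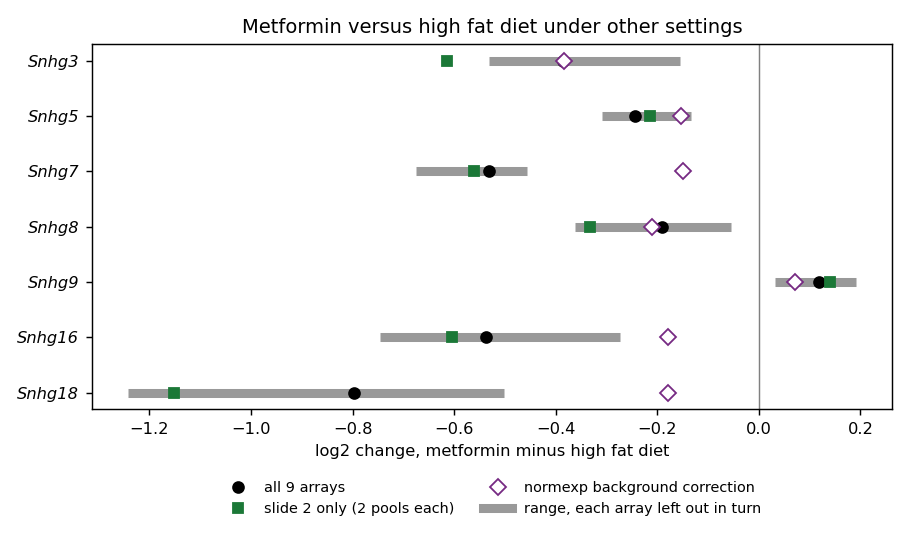
Log2 difference of metformin minus high fat diet for each member (x axis) with all 9 arrays, within slide 2, with normexp background correction, and as the range when each array is left out in turn. Snhg9 lies above 0 and the other 6 members below 0 in every one of these settings, and Snhg7, Snhg16 and Snhg18 move toward 0 with normexp. The normexp offset of 50 draws differences of dim probes toward 0.

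High fat diet with saline against control was the comparison that the name of the group does not use, and it was tested. Limma called 0 of the 7 members after Benjamini-Hochberg adjustment over all tested probes, and 0 had an unadjusted p under 0.05, where 0.0451% and 12.1% of all probes did. The pools of both groups overlapped for all 7 members, while 15.4% of all probes lay apart, 8.13% lower and 7.27% higher. Of the members, 3 had a lower and 4 a higher mean in the high fat diet pools, with a median difference of 0.05 beside -0.01 over all probes, of which 51.8% were lower.

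Snhg18 had the widest difference, at 0.55 (SE 0.33, 95% interval -0.18 to 1.28, limma adjusted p = 0.563). High fat diet replicate 1, the one pool of its group on slide 1 and not above background there, was below the mean of the 3 controls by a difference of -0.34. Slide and pool cannot be told apart in that value. Leaving out single arrays gave 0.25 (without high fat diet replicate 2) to 0.99 (without high fat diet replicate 1), and normexp background correction gave 0.21. Snhg16 was at -0.28 (SE 0.27, 95% interval -0.89 to 0.34, limma adjusted p = 0.776). Leaving out high fat diet replicate 2 gave -0.068, leaving out control replicate 1 gave -0.44, and normexp background correction gave -0.096. Snhg7 (-0.13), Snhg5 (-0.10), Snhg8 (0.08), Snhg3 (0.06) and Snhg9 (0.05) had limma adjusted p-values of 0.919 to 0.965. The 95% interval for Snhg8 ran from -0.55 to 0.70. Control replicate 1 held the lowest control level of Snhg3, Snhg5, Snhg8, Snhg16 and Snhg18 and the highest of Snhg7. Without it the differences for Snhg3, Snhg7 and Snhg8 were -0.12, 0.16 and -0.23, each with the opposite sign.

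Metformin pools against controls took diet, gavage, drug and slide together. All controls lay on slide 1, and the metformin pools lay on slides 2 and 3. This comparison shares its metformin pools with the first one and its controls with the second, so the values stand side by side and their likeness is no separate result. In it 6 of 7 members had lower means, against 50.7% of all probes, with a median difference of -0.32 beside -0.0052 over all probes. Pools lay apart for 1 member, Snhg16, which was lower, against 12.5% of all probes in that direction and 24.9% in either. Limma called 0.546% of all probes and 0 of the 7 members, from which again nothing is read. With normexp background correction Snhg16 was at -0.27, Snhg7 at -0.26 and Snhg18 at 0.035 in this comparison. The first 2 shrank by over 1.5 times and the last had the opposite sign. Since the normexp offset of 50 draws differences of dim probes toward 0, nothing is read from the shrinkage. Beyond Snhg16, the differences in the main setting were -0.66 (SE 0.26) for Snhg7, -0.35 (SE 0.22) for Snhg5 and -0.32 (SE 0.24) for Snhg3. Snhg18 was at -0.25 (SE 0.33), Snhg8 at -0.12 (SE 0.28) and Snhg9 at 0.17 (SE 0.15). Without control replicate 1, Snhg7 was at -0.37, Snhg5 at -0.59, Snhg3 at -0.51 and Snhg8 at -0.42. That 1 pool moved these 4 values by over 1.5 times, Snhg7 toward 0 and the other 3 away from it. Other single arrays moved values toward 0, with Snhg5 at -0.18 without control replicate 3, Snhg3 at -0.17 without metformin replicate 2 and Snhg9 at 0.087 without control replicate 3. Snhg8 was at 0.05 without control replicate 3, and Snhg18 at 0.04 with slide as a random block.

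**Figure D3:**
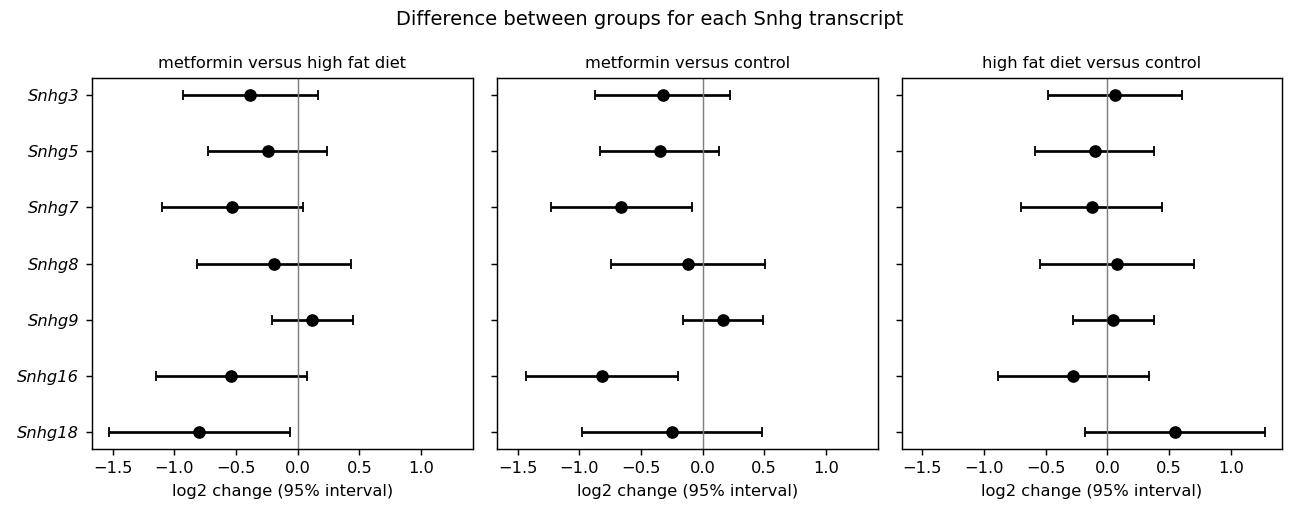
Log2 difference (points) with its 95% interval from the fit (bars) for the 7 members in the 3 comparisons, with 1 panel each. Metformin against high fat diet and against control places 6 members below 0. Those panels hold the pools behind the choice of the family, and whether their intervals include 0 is not read as a test. In high fat diet against control, which was tested, the interval of every member includes 0.

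The members were compared with each other over the 9 pools in 21 pairs, of which 14 had a Pearson r above 0. These pools include the metformin pools behind the choice of the family, so the correlations are a description and no p-value is given. Snhg5 and Snhg8 had r = 0.68 and a Spearman rho of 0.65. That r was 0.52 without the 2 pools farthest from the median of Snhg5, and 0.71 for deviations from the group means. Snhg3 and Snhg18 had r = 0.68 and rho = 0.72, with r = 0.39 without the 2 pools farthest from the median of Snhg3 and 0.61 for deviations from the group means. Snhg8 and Snhg16 had r = 0.66 and rho = 0.65. That r was 0.83 without the 2 pools farthest from the median of Snhg8, and 0.80 for deviations from the group means. Snhg9 went the other way from Snhg5 (r = -0.62) and from Snhg7 (r = -0.64), and for deviations from the group means these values were -0.47 and -0.44. Pools of 1 group share diet, drug and in part the slide, and values of 1 array share its scaling.

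**Figure D4:**
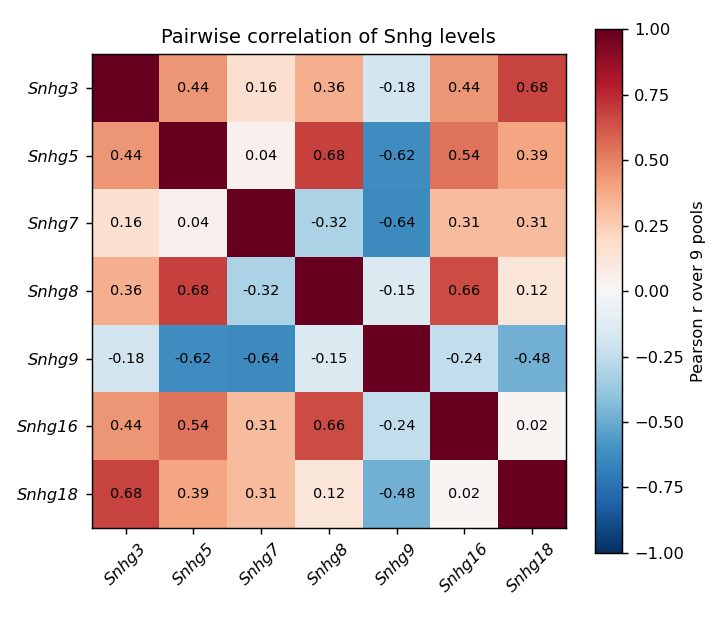
Pearson r between the levels of each pair of members over the 9 pools, from -1 (blue) to 1 (red). Snhg9 has a negative r with each of the other 6 members, and the highest values join Snhg5 with Snhg8 and Snhg3 with Snhg18.

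Other genes of the snoRNA pathway were looked up from lists of snoRNA hosts, snoRNAs, translation genes, snoRNP proteins, decay factors and abundant nuclear RNAs. Only 7 had a named and tested probe, and none of the 17 listed snoRNP proteins and assembly factors or of the 17 listed decay factors did. Limma called 0 of these 7 genes between high fat diet and control, against 0.0451% of all probes. An unadjusted p under 0.05 was found for 2, the imprinted noncoding genes Rian and Meg3, against 12.1% of all probes. Rian differed by -2.25 (SE 0.41, limma adjusted p = 0.109) and Meg3 by -1.503 (SE 0.29, limma adjusted p = 0.122). Rian was at -3.51 ± 0.05 in the high fat diet pools and -1.26 ± 0.75 in the controls, and Meg3 at -1.94 ± 0.11 and -0.44 ± 0.54. Whether Rian was above background in the high fat diet pools was not examined. The part of control replicate 1 in either difference was not tested. Scarna13, a Cajal body RNA that lies inside Snhg10 in the reference table, was at -2.38 ± 0.17 in the metformin pools, -2.42 ± 0.39 in the high fat diet pools and -2.13 ± 0.39 in the controls (SD, n = 3 each). Rpl41, a ribosomal protein gene read through a RIKEN clone that may not measure its main mRNA, was at -0.62 ± 0.24 in the metformin pools, -0.53 ± 0.09 in the high fat diet pools and -0.34 ± 0.07 in the controls. Nap1l4, a histone chaperone gene that hosts a snoRNA, was read through such a clone too. It was at 1.01 ± 0.21 in the metformin pools, 1.26 ± 0.36 in the high fat diet pools and 0.99 ± 0.21 in the controls. Rpph1 is the RNA of ribonuclease P and Neat1 the scaffold of paraspeckles. Between high fat diet and control the differences were -0.28 for Scarna13, -0.19 for Rpl41, 0.27 for Nap1l4, 0.07 for Rpph1 and -0.25 for Neat1 (limma adjusted p = 0.689 to 0.932). Of the 7, 2 had a lower mean in the metformin than in the high fat diet pools, Rpl41 and Nap1l4.

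The named genes with the most similar pattern were found by Pearson r with the mean centred level of the 7 members over the 9 pools, among 2701 other named genes. That mean was -0.16, -0.39 and -0.15 in the metformin pools, against -0.01, 0.17 and 0.23 in the high fat diet pools and -0.11, 0.21 and 0.20 in the controls. The noncoding 1810044D09Rik came first with r = 0.94, followed by the noncoding Rab26os with 0.91, the coding gene Smim8 with 0.89, and the noncoding Gm20300 and 1110006O24Rik with 0.89 each. Rab26os and Smim8 were read through RIKEN clones, which may not measure the main RNA of these genes. 1810044D09Rik was at -0.46 ± 0.27 in the metformin pools, against 0.07 ± 0.10 in the high fat diet pools and 0.08 ± 0.46 in the controls (SD, n = 3 each). Picked as the highest of so many values over 9 pools, these correlations are a description without a test.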

How the data were processed

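Liver RNA of 9 pools (3 per group) was measured on 1-colour Agilent arrays. The authors scanned the arrays and extracted the deposited spot intensity values with Agilent Feature Extraction 11.5.1.1 per the file headers (10.7 per the submitters' processing notes). The processed intensity was background-subtracted and detrended within the array per the file headers, whose build field names mm9. The deposited log2 values of the series table equalled the log2 processed signal less its 75th percentile, within 0.01.

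Control spots and 73 to 192 outlier spots per array were removed, log2 signals of a probe's spots were averaged, and the array's 75th percentile was subtracted. A probe was tested when at least a share of 0.5 of its spots were above background on at least 3 of 9 arrays and it had a value on all 9 (62036 of 97836 probes). The extraction software's 0 or 1 marks gave the background calls. Gene names came from RefSeq accessions (4658 probes), RIKEN clones (1209) and names in identifiers (8), through a RefSeq table of GRCm38.p6, of which only names, neighbours and promoter windows were used. Among several tested probes of a gene, the brightest was used.

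The groups were fitted together in limma 3.58.1 (R 4.3.3) over all 9 arrays (6 residual and 3.75 prior degrees of freedom), with Benjamini-Hochberg adjustment over all tested probes and 0.05 as the threshold. A single probe permuted 3 against 3 cannot give a two-sided p under 0.1. The fit was tested on simulated data. The rule for named genes was every member, the 3 list genes of lowest p per list, and the 5 genes most like the members. The members and lists were chosen with earlier results of these data known. Same-numbered pools of different groups are not stated to be paired, and of 9 such pairs 1 had deviations correlated over 0.1. Alternatives were quantile normalization, normexp, the array median as centre, other filters, slide and replicate blocks, 6-array fits, a trended robust prior, the series table and leaving out each array. The offset in normexp was 50.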

Additional observations from a re-analysis of the deposited data

How the results depend on the processing

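Between metformin and high fat diet each member kept its sign in every alternative that tested it. In the 20 alternatives that kept all 7 members, 6 of 7 were lower. The filter requiring signal on all 9 arrays left 5 members, without Snhg16 and Snhg18. Many alternatives could not change a member's difference here. These were other filters, the replicate block, the 6-array fits, the trended robust prior and leaving out a control. The series table holds nearly the same values, and slide as a fixed block repeats the difference within slide 2. The shared sign over these settings is therefore no separate result. The median difference between metformin and high fat diet ran from -0.56 to -0.18, and from -0.47 to -0.27 when arrays were left out in turn. Between metformin and control the median was -0.60 with slide as a fixed block, which leaves metformin replicate 3 with a slide of its own, and -0.42 to -0.19 when arrays were left out in turn. Limma called 0 members there except with slide as a random block. That setting called 1 member, Snhg16 at -0.94 (SE 0.22), and 8243 of all 62036 tested probes. Since the metformin values lay behind the choice of the family, neither count of members is a test of it. Between high fat diet and control the median was -0.19 with slide as a fixed block. That is the same quantity as the difference within slide 1 and rests on high fat diet replicate 1 alone in its group. Slide 1 alone and slide 2 alone were chosen after seeing the data. The median between high fat diet and control was -0.12 to 0.12 when arrays were left out. The members' small differences there changed sign with slide as a fixed block for Snhg3 (-0.23), Snhg16 (0.0031) and Snhg18 (-0.34), and with slide as a random block for Snhg9 (-0.0039). They did so too when single arrays were left out, where Snhg3 ran from -0.17 to 0.21, Snhg5 from -0.35 to 0.061, Snhg7 from -0.37 to 0.16, Snhg8 from -0.23 to 0.24 and Snhg9 from -0.030 to 0.14. Limma called 0 members in all 20 fits of that comparison. The cause of these shifts was not tested. A replicate block cannot change a group difference here, because every group holds each replicate number. The median differences thus stayed at -0.39, -0.32 and 0.05 for metformin against high fat diet, metformin against control and high fat diet against control. No call among the members changed, and 4 of 9 arrays correlated best with their own number. Over all probes the calls moved from 4, 339 and 28 to between 0 and 9, 0 and 8243, and 0 and 231 over the alternatives. Averaging all probes of a gene was not run, since each member has 1 named probe. Normexp used the median spot signal because the files hold no mean signal. Signal over background limits Snhg7, Snhg16 and Snhg18, which had spots at background. Their smaller differences with normexp add nothing to this limit, because its offset of 50 draws differences of dim probes toward 0.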
